A study of Mus musculus with 20 samples.

Results

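The synaptic vesicle release machinery was described here as 77 genes of 13 subfamilies, out of 55487 genes in the count files. They were chosen by symbol: 17 synaptotagmins (Syt), 15 syntaxins (Stx), 8 syntaxin-binding proteins (Stxbp), 7 VAMPs, 5 genes named Snap with a number, 4 complexins (Cplx), 4 Rab3 genes, 4 RIM genes (Rims), 3 synapsins (Syn), 3 SV2 genes, 3 Munc13 genes (Unc13), 3 Doc2 genes and synaptophysin (Syp). Of the 77, 76 are protein coding and 1, Stxbp3-ps, is a pseudogene. Expression was measured by sequencing of poly(A) RNA from the hippocampus and cortex of NMRI mice, an outbred strain, whose olfactory bulbs had been removed. The operation serves as a mouse model of the sporadic form of Alzheimer's disease. From day 14 after the operation the mice were given human recombinant YB-1 (6.4 µg) or human recombinant HSP70 (4 µg) through the nose, once a day for 21 days. The 20 libraries form 4 groups of 5: hippocampus with YB-1, hippocampus with HSP70, cortex with YB-1 and cortex with HSP70. All 4 groups share the operation and a chaperone. Vehicle-treated and unoperated animals were not analysed here, so a gene that is higher with YB-1 cannot be told apart from one that is lower with HSP70. The ages and sexes of the mice are not given in the labels, and neither is the animal behind each library, so p-values measure the spread between libraries, which may be partly technical.

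Neurotransmitter is released when a synaptic vesicle fuses with the plasma membrane. Fusion is driven by the SNARE complex of a syntaxin, SNAP-25 and the vesicle protein VAMP2, and syntaxin-binding proteins hold and template the syntaxin. RIM and Munc13 proteins dock and prime vesicles at the active zone, synaptotagmins and Doc2 proteins bind calcium and trigger fusion, and complexins clamp and then assist the primed complex. Synapsins tether the reserve vesicles, Rab3 recruits vesicles to the active zone, and SV2 and synaptophysin are abundant proteins of the vesicle membrane. Several genes that carry these family names act elsewhere: syntaxins such as Stx5a, Stx7 and Stx17 work in the Golgi, the endosome and autophagy, and Snap91 encodes the clathrin adaptor AP180, which acts in vesicle retrieval.

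Assigned reads per library numbered 7236195 to 10166968 in the hippocampus with YB-1 and 7756835 to 13053910 in the hippocampus with HSP70. In the cortex they numbered 6414215 to 10763465 with YB-1 and 12283392 to 15148078 with HSP70, so the cortical treatments do not overlap in depth. Markers of the dentate gyrus and the upper cortical layers went with the tissue labels, and those of the deep layers were mixed. The dentate granule cell gene C1ql2 averaged 126 library-scaled read counts (CPM) in the hippocampus and 9.98 CPM in the cortex. The upper-layer gene Lamp5 averaged 38.75 CPM in the hippocampus and 181 CPM in the cortex. By edgeR at an adjusted p under 0.05, 6 of 12 tested dentate genes were higher and 2 lower in the hippocampus. Of 12 upper-layer genes 10 were lower and 1 higher, and of 14 deep-layer genes 6 were lower and 6 higher. The dentate list includes Stxbp6 and the deep-layer list Cplx3, which also belong to the machinery, and Cplx3 is among the 6 lower deep-layer genes. Over all genes 7.32% were lower and 8.55% higher. Summed deep-layer markers lay at 598 to 772 CPM in the hippocampus and 504 to 586 CPM in the cortex. Markers of neighbouring regions stood apart in some libraries, and 4 of these were left out together in an alternative fit. Summed thalamic markers reached 547, 434 and 347 CPM in hippocampus HSP70 replicate 4 and hippocampus YB-1 replicates 3 and 5, against 169 to 241 CPM in the other hippocampal libraries. Summed striatal markers reached 915 CPM in cortex YB-1 replicate 4, against 254 to 422 CPM in the other cortical libraries. These are the 4 left out. In hippocampus HSP70 replicate 5, which was kept, summed striatal markers reached 510 CPM, against 282 to 387 CPM in the other hippocampal libraries. Values of the machinery's named genes that moved by over 1.5 times without the 4 libraries are given both ways.

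The machinery was abundant in both tissues. Its 77 genes took 1.34 to 1.74% of assigned reads in the hippocampus with YB-1, 1.21 to 1.73% in the hippocampus with HSP70, 1.62 to 1.965% in the cortex with YB-1 and 1.61 to 1.94% in the cortex with HSP70. Averaged over the 20 libraries, 25 genes exceeded 100 CPM. No read was assigned to Syt8 or Stxbp3-ps, and 5 genes, these included, stayed below 1 CPM in every library. Syt15, Stx11, Stx19, Cplx4, Vamp9, Syt8 and Stxbp3-ps did not pass the filter on low counts in the comparison of the tissues, which left 70 genes to test. Syt10 was also left out in the cortex, where 69 genes were tested, and Syt10 and Doc2g in the hippocampus, where 68 were tested.

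Levels of different genes can be compared only per length. The length used here was that of all annotated exons of a gene together, not that of the transcripts expressed. Differences between genes per kilobase are therefore approximate. Per kilobase of exon, the vesicle SNARE led the machinery in both tissues, and the plasma membrane SNAREs Snap25 and Stx1a lay lower. Snap25 and Stx1a took places 15 and 16 in the hippocampus and 14 and 11 in the cortex. Among the genes named Snap with a number, Snap47 led in both tissues and not Snap25. Snap47 had 165 ± 13.7 CPM per kilobase in the hippocampus and 176 ± 17.4 in the cortex. Snap25 had 55.0 ± 17.2 in the hippocampus and 90.1 ± 27.3 in the cortex. Vamp2, the vesicle SNARE, had the highest level, 475 ± 22.5 CPM per kilobase in the hippocampus and 549 ± 81.9 in the cortex (mean ± SD, n = 10 libraries per tissue). Rab3a followed with 389.7 ± 39.1 CPM per kilobase in the hippocampus and 418 ± 63.3 in the cortex. Syp, Syn1 and Cplx1 took places 3 to 5 in both tissues, at 307 to 322 CPM per kilobase in the hippocampus and 364 to 395 in the cortex. These 3 neighbours lie within 1 SD of each other in each tissue.

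Most subfamilies were dominated by 1 gene. In the hippocampus, Rab3a held 92.6%, Vamp2 90.9%, Unc13a 90.8% and Sv2a 88.9% of the summed level per kilobase of its subfamily. In the cortex, Vamp2 held 92.7%, Rab3a 92.01%, Unc13a 90.2% and Sv2a 87.0%. Syt11, a synaptotagmin that does not bind calcium, led its subfamily in both tissues with 143 ± 17.1 CPM per kilobase in the hippocampus and 195 ± 36.5 in the cortex. Syt1, the main calcium sensor of fast release in forebrain neurons, had 70.55 ± 11.4 CPM per kilobase in the hippocampus and 86.4 ± 15.1 in the cortex. Priming genes were scarce beside the fusion genes: Unc13a, which encodes Munc13-1, had 10.6 ± 1.23 CPM per kilobase in the hippocampus and 12.7 ± 1.05 in the cortex. In the Doc2 subfamily the leading gene differed between the tissues.

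**Figure D1:**
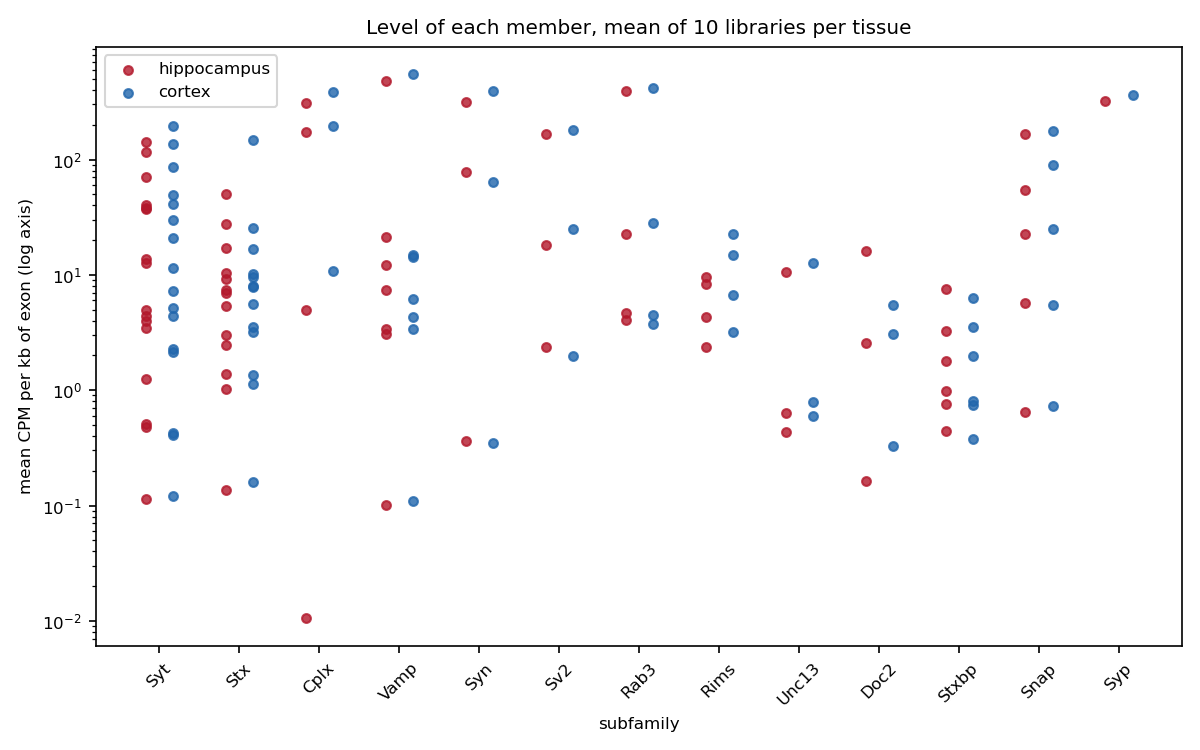
Mean CPM per kilobase of exon (log axis) in hippocampus (red) and cortex (blue), by subfamily, over 10 libraries per tissue. The points come from 75 of the 77 genes. Of these, genes at or near 0 are not drawn: Syt8, Stxbp3-ps and Stx19 in either tissue, and Cplx4 in the cortex. Vamp2 is the highest point in both tissues, and the RIM, Munc13 and Doc2 genes lie below 25 CPM per kilobase.

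Between the tissues, the release machinery was on balance lower in the hippocampus than in the cortex, with Doc2b as the main exception. Of the 70 genes tested, 18 (25.7%) were lower and 4 (5.71%) were higher in the hippocampus at an adjusted p under 0.05 by edgeR's quasi-likelihood test with Benjamini-Hochberg adjustment over all genes. Over all 14616 genes tested, 7.32% were lower and 8.55% were higher, and 15.9% were called in either direction against 31.4% of the machinery. The median log2 fold change, hippocampus over cortex, was -0.15 for the machinery and 0.00064 for all genes, and 49 of the 70 genes (70%) had a negative value, against 49.9% of all genes. The 4 higher genes were Doc2b, Syt9, Syt3 and Syn2. Among the 18 lower genes were the syntaxins Stx1a and Stx3, Snap25, Unc13a, all 4 RIM genes, Cplx1 and Cplx3, Doc2a, Syn1, and the synaptotagmins Syt2, Syt4, Syt6, Syt11 and Syt16. By edgeR, none of the genes tested in the Vamp, Sv2, Rab3 and Syp subfamilies, 14 in all, passed the threshold. DESeq2 called 27 genes of the machinery (22 lower, 5 higher), against 18.1% of all genes. Run with a quality weight for each library, here and below, limma-voom called 29 (23 lower, 6 higher), against 19.5%. Both included the 22 genes called by edgeR. Rab3b, Sv2b, Syt17 and Unc13b were added by both tools, Syt1 by DESeq2 alone, and Vamp2, Sv2c and Syt5 by limma-voom alone. Leaving out the 4 libraries with raised striatal or thalamic markers, 15 genes were lower and 2 were higher, against 11.3% of all genes called in either direction. Stx3, Syn1, Syn2, Syt3 and Unc13a were then no longer called, with log2 fold changes of -0.43, -0.26, 0.29, 0.37 and -0.23.

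**Figure D2:**
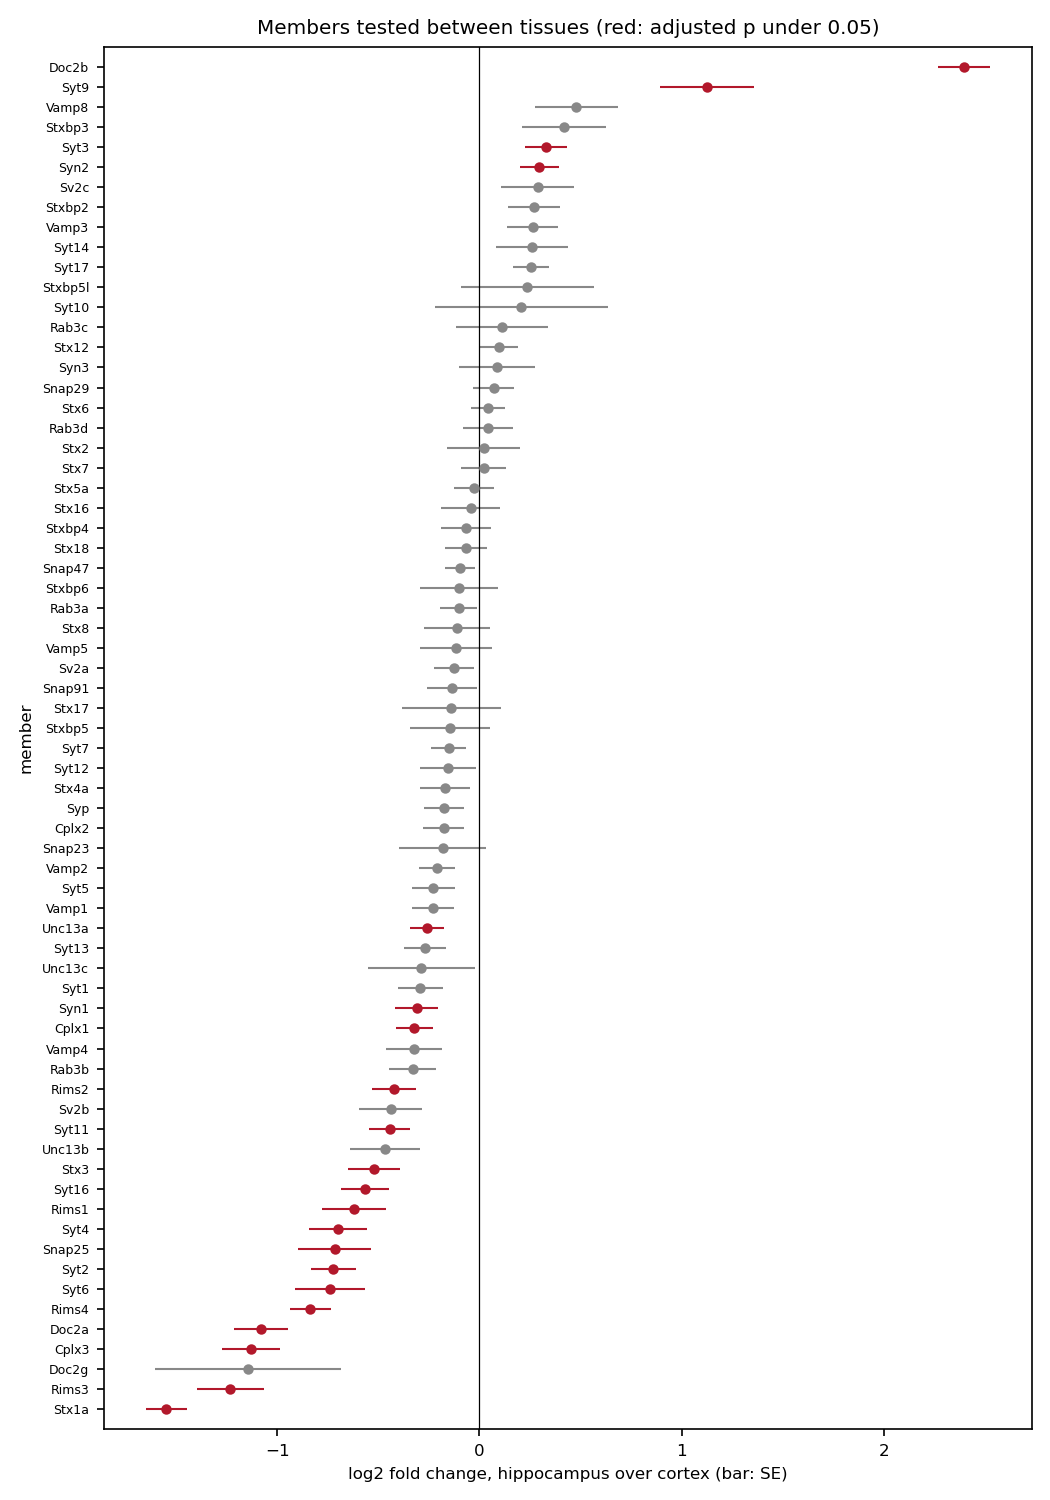
Log2 fold change of 68 of the 70 tested genes, hippocampus over cortex, with bars of 1 SE; red marks an adjusted p under 0.05. Doc2b stands at 2.40 at the top and Stx1a at -1.55 at the bottom, and most of the other points lie left of 0.

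Cell-type markers differed between the tissues as well. Over all genes, 8.55% were called higher and 7.32% lower in the hippocampus. All 12 tested genes of the myelinating oligodendrocyte list were higher in the hippocampus, with a summed level of 3914 to 7296 CPM in the hippocampus and 1462 to 2598 CPM in the cortex. Of 15 pan-neuronal genes, 4 were lower in the hippocampus and none was higher. Their median log2 fold change was -0.16, close to the -0.15 of the machinery, and 10 of the 15 had a negative value. Their summed levels were 5160 to 5881 CPM in the hippocampus and 5383 to 6732 CPM in the cortex. Of 18 genes of GABAergic neurons, 4 were lower, with summed levels of 1153 to 1570 CPM in the hippocampus and 1421 to 2090 CPM in the cortex. All 12 choroid plexus genes were higher in the hippocampus, at 44.4 to 1795 CPM in the hippocampus and 12.3 to 169 CPM in the cortex. The part of cell composition in the results on the release machinery was not tested. In bulk tissue, fewer cells of a type and less RNA per cell cannot be told apart.

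The Doc2 subfamily showed the widest divergence between the tissues. Doc2b encodes a high-affinity calcium sensor of spontaneous and asynchronous release. Doc2b was read at 71.1, 95.01, 55.8, 62.99 and 66.05 CPM in the hippocampus with YB-1 and at 66.4, 69.2, 73.65, 74.8 and 63.02 CPM in the hippocampus with HSP70. In the cortex it was read at 11.9, 10.3, 18.6, 20.35 and 10.45 CPM with YB-1 and at 11.9, 11.3, 12.03, 14.04 and 12.5 CPM with HSP70. Every hippocampal library lay above every cortical one, and the treatments overlapped within each tissue. The log2 fold change was 2.40 ± 0.13 (SE; adjusted p = 1.2e-12), with the hippocampus higher in 10 of 10 pairs of same-numbered libraries.

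Doc2a, its closest paralogue, went the other way. In the hippocampus it was read at 10.04, 5.43, 6.79, 5.41 and 7.55 CPM with YB-1 and 8.11, 7.65, 8.65, 6.49 and 6.45 CPM with HSP70, and in the cortex at 17.3, 13.8, 16.1, 22 and 14.1 CPM with YB-1 and 11.3, 14.7, 16.2, 14.2 and 14.8 CPM with HSP70. The tissues did not overlap, the highest hippocampal library lying just under the lowest cortical one. The log2 fold change was -1.08 ± 0.13 (SE; adjusted p = 1.78e-06). By annotation, 39.4% of the exon length of Doc2a overlaps exons of Ino80e on the opposite strand, and the strand setting of the counting is not given in the sources used here, so reads of the pair cannot be told apart with certainty. The ratio of Doc2b to Doc2a per kilobase was 4.55 to 11.2 in hippocampal libraries (median 5.72) and 0.441 to 0.739 in cortical ones (median 0.520). Doc2b was thus the leading Doc2 gene in every hippocampal library and Doc2a in every cortical one. Doc2g was read at 0 to 1.02 CPM in the hippocampus and 0.178 to 2.30 CPM in the cortex. By annotation 63.5% of its exon length overlaps Gm49405 on the same strand, so its level is uncertain.

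Among the plasma membrane SNAREs, Stx1a had the largest decrease of the machinery. Stx1a was read at 143, 118, 143, 137 and 108 CPM in the hippocampus with YB-1 and at 143, 147, 149, 134 and 128 CPM in the hippocampus with HSP70. In the cortex it was read at 341, 429, 382, 533 and 301 CPM with YB-1 and at 309.9, 434, 437, 409.7 and 373 CPM with HSP70. The highest hippocampal library was below the lowest cortical one by a wide margin. Stx1a had a log2 fold change of -1.55 ± 0.10 (SE; adjusted p = 3.02e-11), with the hippocampus lower in 10 of 10 pairs. Stx3, a syntaxin of regulated exocytosis outside the conventional synapse as well, was lower in the hippocampus in 10 of 10 pairs, with a log2 fold change of -0.52 ± 0.13 (SE; adjusted p = 0.00571). Without the 4 libraries with raised striatal or thalamic markers Stx3 did not pass (log2 fold change -0.43, adjusted p = 0.071).

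Snap25, the other plasma membrane SNARE, was lower in the hippocampus but varied widely. In the hippocampus it was read at 523, 244, 374, 494 and 388 CPM with YB-1 and 546, 353, 334, 255 and 222 CPM with HSP70, and in the cortex at 504, 518, 825, 389 and 667 CPM with YB-1 and 1013, 647, 571, 486 and 500.2 CPM with HSP70. The tissues overlapped, with the highest hippocampal libraries above the lowest cortical ones. Over all libraries the log2 fold change was -0.72 ± 0.18 (SE; adjusted p = 0.00695), and the hippocampus was lower in 8 of 10 pairs. Among YB-1 libraries alone the log2 fold change was -0.53 and did not pass (adjusted p = 0.214); among HSP70 libraries alone it was -0.91 (adjusted p = 0.0301). The vesicle SNARE Vamp2 was read at 1667 to 1950 CPM in the hippocampus and 1558 to 2462 CPM in the cortex, and its log2 fold change of -0.21 ± 0.09 (SE) did not pass by edgeR (adjusted p = 0.109).

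All 4 RIM genes were lower in the hippocampus, the one subfamily of more than 1 gene in which every tested gene passed. RIM proteins are active zone scaffolds that recruit calcium channels and Munc13. Rims3, which encodes a short gamma form, was read in the hippocampus at 75.1, 43.8, 98.8, 49.3 and 73.97 CPM with YB-1 and 72.98, 70.9, 75.3, 141 and 57.5 CPM with HSP70, and in the cortex at 138, 145, 189, 213 and 119 CPM with YB-1 and 175, 161, 192, 197 and 258 CPM with HSP70. A single hippocampal library, HSP70 replicate 4, reached into the cortical range, and it was also the library with the highest summed thalamic markers. The log2 fold change of Rims3 was -1.23 ± 0.16 (SE; adjusted p = 6.04e-06), and -1.45 without the 4 libraries with raised markers. Rims4, the other gamma form, was read in the hippocampus at 47.96, 31.9, 47.25, 45.8 and 36.5 CPM with YB-1 and 47.1, 47.8, 39.98, 35.45 and 37.2 CPM with HSP70, and in the cortex at 69.5, 78.4, 95.5, 60.9 and 63.1 CPM with YB-1 and 71.4, 71.5, 80.6, 81.8 and 72.3 CPM with HSP70. The tissues did not overlap for Rims4, and its log2 fold change was -0.84 ± 0.10 (SE; adjusted p = 1.05e-06). The long forms had smaller log2 fold changes. Rims1, at 20.6 to 49.9 CPM in the hippocampus and 31.9 to 73.5 CPM in the cortex, had a log2 fold change of -0.62 ± 0.16 (SE; adjusted p = 0.0067). Rims2, at 20.3 to 30.9 CPM in the hippocampus and 27.9 to 43.4 CPM in the cortex, had one of -0.42 ± 0.11 (SE; adjusted p = 0.00728). Fitted within 1 treatment by edgeR, Rims1 and Rims2 did not pass. Their adjusted p values were 0.0783 and 0.0696 among HSP70 libraries and 0.127 and 0.266 among YB-1 libraries. Of the Munc13 genes, Unc13a was lower by a small step, with a log2 fold change of -0.26 ± 0.08 (SE; adjusted p = 0.0324). Its call ended without any 1 of 7 libraries, at adjusted p values of 0.0514 to 0.0654.

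Complexins bind the assembled SNARE complex. Cplx3, known from retinal ribbon synapses and from subplate neurons of the mouse cortex, was read in the hippocampus at 15.2, 8.81, 14.1, 13.65 and 8.66 CPM with YB-1 and 20.3, 18.4, 13.5, 15.75 and 17.9 CPM with HSP70, and in the cortex at 26.5, 37.5, 29.9, 48.2 and 22.9 CPM with YB-1 and 23.8, 34.45, 26.4, 34.2 and 32.04 CPM with HSP70. The tissues did not overlap, and the log2 fold change was -1.13 ± 0.14 (SE; adjusted p = 2.18e-06). Cplx1, at 569 to 821 CPM in the hippocampus and 685 to 1007 CPM in the cortex, had a log2 fold change of -0.32 ± 0.09 (SE; adjusted p = 0.0148). Cplx2 did not pass, with a log2 fold change of -0.18 ± 0.10 (SE; adjusted p = 0.29). Counting the pairs of tissue ranges, 6 of the 70 tested genes did not overlap between the tissues (among them Doc2b, Stx1a, Cplx3, Doc2a and Rims4), against 3.01% of all genes tested.

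The synaptotagmins diverged. Syt9, a fast calcium sensor of a subset of mouse neurons, was read in the hippocampus at 11.96, 19.3, 25.8, 6.08 and 31.2 CPM with YB-1 and 15.4, 14.6, 13.1, 34.8 and 24.8 CPM with HSP70, and in the cortex at 8.74, 8.53, 8.27, 10.1 and 11.2 CPM with YB-1 and 6.16, 6.94, 8.15, 10.02 and 12.4 CPM with HSP70. The 3 highest hippocampal values belong to the 3 libraries with raised thalamic markers, and YB-1 replicate 4 lay below every cortical library. The log2 fold change was 1.12 ± 0.23 (SE; adjusted p = 0.0012) over all 20 libraries and 0.69 (adjusted p = 0.0412) without the 4 libraries with raised markers; the part of neighbouring tissue in the difference was not tested further. Syt2, the fast sensor of many inhibitory and hindbrain synapses, was read at 25.1 to 40.55 CPM in the hippocampus and 38.96 to 68.7 CPM in the cortex, with a log2 fold change of -0.72 ± 0.11 (SE; adjusted p = 3.21e-05). Syt3 was higher in the hippocampus by a log2 fold change of 0.33 ± 0.10 (SE; adjusted p = 0.0292), a call that ended without any 1 of 7 libraries.

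Of the other synaptotagmins that passed, Syt6 was read at 4.33 to 10.25 CPM in the hippocampus and 7.08 to 19.98 CPM in the cortex, with a log2 fold change of -0.74 ± 0.17 (SE; adjusted p = 0.00324). Syt4, an activity-regulated synaptotagmin of dense-core vesicles, was read at 30.2 to 81.2 CPM in the hippocampus and 56.8 to 119.8 CPM in the cortex, with a log2 fold change of -0.70 ± 0.14 (SE; adjusted p = 0.000869). By annotation 14.5% of the exon length of Syt4 overlaps Gm26658 on the opposite strand. Syt11 and Syt16 were lower by log2 fold changes of -0.44 ± 0.10 and -0.57 ± 0.12 (SE). The major sensor Syt1 did not pass in the main edgeR fit, with a log2 fold change of -0.29 ± 0.11 (SE, adjusted p = 0.0726). It was called by DESeq2 and with the pairing by replicate number described below, and it was lower in the hippocampus in 8 of 10 pairs.

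The synapsins split. Syn2 was read in the hippocampus at 658, 537, 566, 450.3 and 565 CPM with YB-1 and 583, 694, 530.1, 484 and 447 CPM with HSP70, and in the cortex at 562, 416, 529.9, 423 and 445 CPM with YB-1 and 416, 515, 406, 414 and 370.0 CPM with HSP70. The tissues overlapped, yet the hippocampus was higher in 10 of 10 pairs, with a log2 fold change of 0.30 ± 0.10 (SE; adjusted p = 0.0347). Syn1, at 802 to 1158 CPM in the hippocampus and 839.6 to 1747 CPM in the cortex, had a log2 fold change of -0.31 ± 0.11 (SE; adjusted p = 0.0494). Both calls were fragile: that of Syn2 ended without any 1 of 13 libraries, at adjusted p values of 0.0515 to 0.0891, and that of Syn1 without any 1 of 16, at 0.0523 to 0.101. The vesicle proteins Syp, Sv2a and Rab3a did not pass, with log2 fold changes of -0.17 ± 0.10, -0.12 ± 0.10 and -0.10 ± 0.09 (SE).

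**Figure D3:**
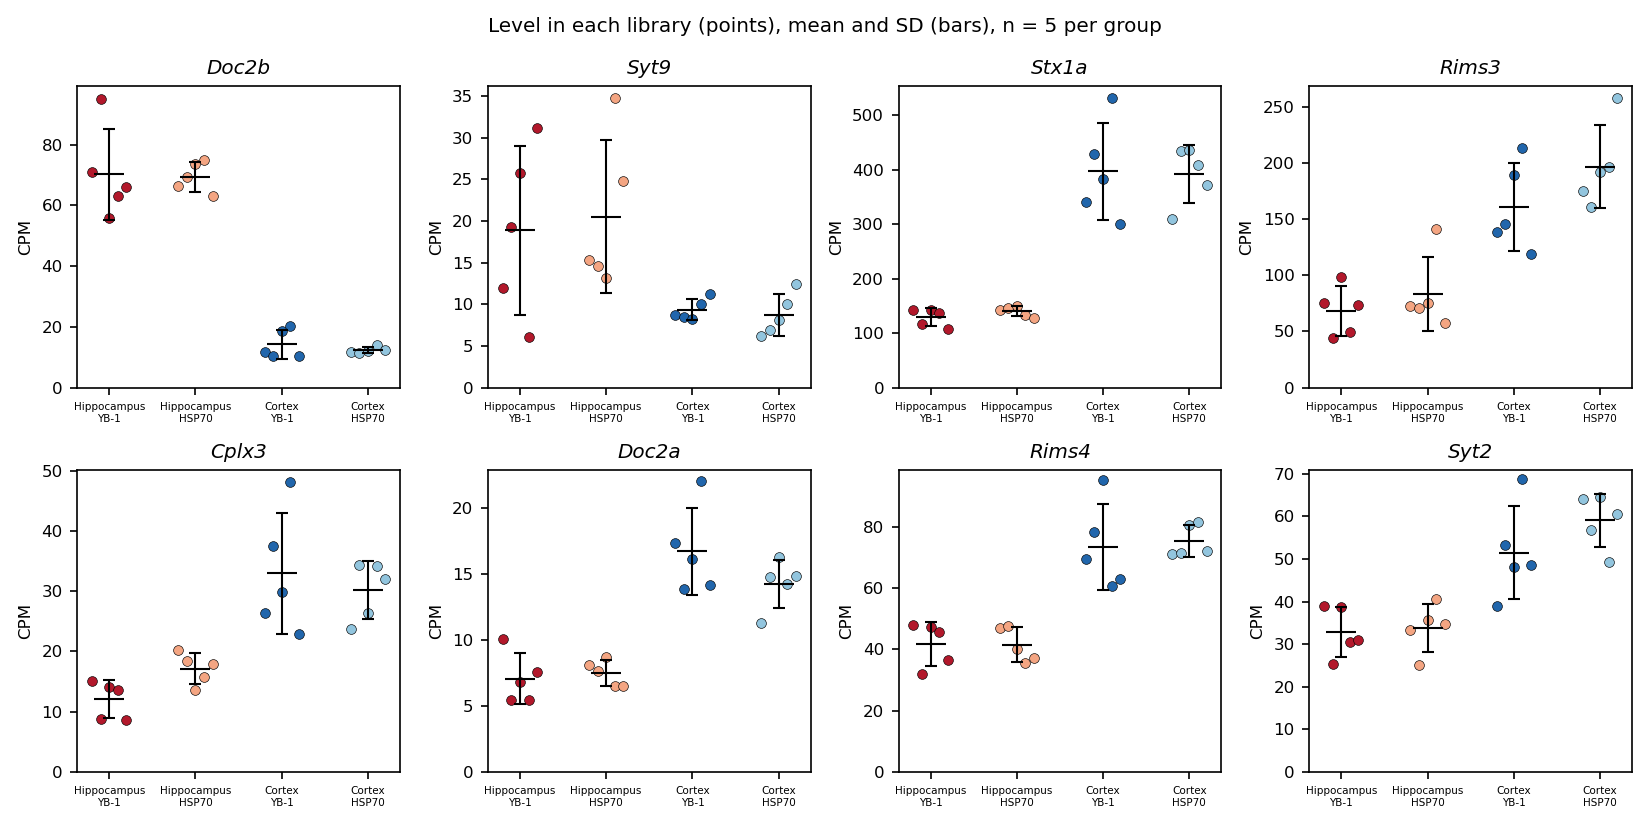
CPM in each of the 20 libraries (points) with the mean and SD of each group of 5 (bars) for 8 genes, hippocampus in red and cortex in blue, darker shades for YB-1. Doc2b and Syt9 are higher in the hippocampus and the other 6 lower, and Rims3, Syt9 and Syt2 are the 3 whose tissues overlap.

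Same-numbered hippocampal and cortical libraries of a treatment deviated together, so the replicate number was also used as a block. With the block, 26 genes of the machinery were called, 22 lower and 4 higher, against 19.8% of all genes in either direction. Syn1 was no longer called (adjusted p = 0.0556), and Rab3b, Sv2b, Syt1, Syt13 and Unc13b were called in addition. Fitted within 1 treatment, 10 genes were called among the YB-1 libraries (1 higher, 9 lower), against 5.66% of all genes, and 13 among the HSP70 libraries (2 higher, 11 lower), against 8.01%, each with 10 libraries. Among those called in both were Doc2b, higher, and Stx1a, Syt2, Cplx3, Doc2a, Rims3 and Rims4, lower. Syt9, Snap25, Stx3, Syt4 and Syt11 were called only among the HSP70 libraries, and Syt6 and Syt16 only among the YB-1 libraries. Cplx1, Rims1, Rims2, Syn1, Syn2, Syt3 and Unc13a were called in neither. In every one of the 29 alternative settings run for this comparison, all 22 genes kept the sign of their log2 fold change.

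Promoter sequences are shown for 4 genes of this comparison so that the start regions of opposite members can be read beside their levels. They are Syt9, the most increased called gene that the RefSeq promoter table holds, Stx1a, the most decreased one, and Syn1 and Unc13a, the only members in the table with the TTCAGCACC stretch described next. Each runs 5′ to 3′ on the gene's strand, with 250 bases before the start of the gene and 50 after it, in the GRCm38.p6 build of the table. The files themselves were made with GRCm39, so genes were matched by symbol and the coordinates belong to the table only: Syt9 at chr7:107370540-107370839 (plus strand), Stx1a at chr5:135023232-135023531 (plus strand), Syn1 at chrX:20920869-20921168 (minus strand) and Unc13a at chr8:71671708-71672007 (minus strand). Capitals mark matches, on either strand, to the cAMP response element TGACGTCA, to TTCAGCACC, the first part of the RE1 element bound by the neuronal repressor REST, and to the GC box GGGCGG bound by Sp1.
Syt9: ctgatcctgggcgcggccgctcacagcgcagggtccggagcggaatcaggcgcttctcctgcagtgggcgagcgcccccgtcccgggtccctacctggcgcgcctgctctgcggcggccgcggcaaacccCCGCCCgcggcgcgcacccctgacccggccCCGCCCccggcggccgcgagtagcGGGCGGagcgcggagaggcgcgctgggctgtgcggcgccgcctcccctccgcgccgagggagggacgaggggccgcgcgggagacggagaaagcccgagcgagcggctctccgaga
Stx1a: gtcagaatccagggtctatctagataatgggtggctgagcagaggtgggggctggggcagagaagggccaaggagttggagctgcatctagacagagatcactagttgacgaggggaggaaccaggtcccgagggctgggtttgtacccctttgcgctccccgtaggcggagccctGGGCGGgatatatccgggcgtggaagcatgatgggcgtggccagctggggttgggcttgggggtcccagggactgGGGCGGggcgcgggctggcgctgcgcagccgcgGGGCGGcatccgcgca
Syn1: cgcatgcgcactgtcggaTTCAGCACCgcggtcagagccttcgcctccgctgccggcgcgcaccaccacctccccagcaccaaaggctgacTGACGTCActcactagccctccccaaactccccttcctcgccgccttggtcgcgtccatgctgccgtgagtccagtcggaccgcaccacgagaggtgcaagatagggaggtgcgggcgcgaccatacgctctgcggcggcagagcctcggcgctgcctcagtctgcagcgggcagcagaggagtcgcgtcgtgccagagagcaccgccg
Unc13a: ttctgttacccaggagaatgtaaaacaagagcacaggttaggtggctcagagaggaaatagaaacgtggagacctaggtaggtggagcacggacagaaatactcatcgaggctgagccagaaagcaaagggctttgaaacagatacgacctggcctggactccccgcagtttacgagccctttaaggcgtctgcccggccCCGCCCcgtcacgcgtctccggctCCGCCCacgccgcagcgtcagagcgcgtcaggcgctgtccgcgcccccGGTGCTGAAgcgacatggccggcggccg

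The Syt9 and Stx1a promoters held 3 GC boxes each and neither of the other motifs. The Syn1 promoter held 1 cAMP response element and 1 TTCAGCACC, and the Unc13a promoter 1 TTCAGCACC and 2 GC boxes. In the table, 59 of the machinery's genes had 75 promoters. TTCAGCACC was in 2 of the 75 (2.67%) and in 0.371% of all 32851 promoters of the same length. TGACGTCA was in 2 of the 75 (2.67%) and in 1.79% of all, and GGGCGG in 66.7% of the 75 and in 35.7% of all. A match is a run of letters and not a measured site. Doc2b, Doc2a and Snap25 were not matched in the table.

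The genes that work beside the release machinery were described from 4 lists. Of 23 genes of the active zone scaffold and calcium channels, 6 were lower and 1 was higher in the hippocampus, with a median log2 fold change of -0.097. Named from this list, the calcium channel subunit Cacnb3 had a log2 fold change of -0.62 ± 0.11 (SE; adjusted p = 2.83e-04), Cask -0.50 ± 0.13 and the liprin Ppfia3 -0.39 ± 0.10. Of 17 tested genes of SNARE recycling and priming, 2 were lower, Napb (-0.40 ± 0.11) and Bloc1s6 (-0.34 ± 0.10), and Nsf, the ATPase that takes SNARE complexes apart, did not pass (0.22 ± 0.12, adjusted p = 0.254). Of 23 tested genes of the vesicle membrane and cargo, Sncb was lower (-0.56 ± 0.11) and Sncg higher (1.17 ± 0.24), both synucleins. Of 25 genes of vesicle endocytosis, Ston2 was higher (0.54 ± 0.17) and none was lower. In the order given, the shares called lower were 26.1%, 11.8%, 4.35% and 0% and the shares called higher 4.35%, 0%, 4.35% and 4%, against 7.32% lower and 8.55% higher over all genes. The medians of these lists, -0.097, -0.068, -0.0010 and -0.019, lay closer to that of all genes than the median of the machinery did.

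Treatment was compared next, within each tissue. In the hippocampus no gene of the release machinery differed between YB-1 and HSP70 at an adjusted p under 0.05: 0 of 68 were called by edgeR's quasi-likelihood test, as were 0% of all 13723 genes. At an unadjusted p under 0.05, 1 gene of the machinery was found (1.47%), against 2.4% of all genes. DESeq2 and limma-voom also called 0 of the 68. The median log2 fold change, YB-1 over HSP70, was 0.015 for the machinery and -0.0030 for all genes. The 95% intervals of 65 of the 68 genes lay within a 2-fold difference in either direction.

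The hippocampal gene with the smallest p was Cplx3. It was read at 15.2, 8.81, 14.1, 13.65 and 8.66 CPM with YB-1, against 20.3, 18.4, 13.5, 15.75 and 17.9 CPM with HSP70. The YB-1 libraries were mostly lower, but the ranges overlapped, and the log2 fold change was -0.51 ± 0.20 (SE; adjusted p = 1 by edgeR). Next on the lower side came Rab3b with -0.35 ± 0.17, Syt17 with -0.22 ± 0.14, Snap47 with -0.15 ± 0.10 and Rab3d with -0.23 ± 0.17 (log2 fold change ± SE). On the higher side the smallest p values included those of Stxbp2, a Munc18 form of secretory and immune cells, with 0.39 ± 0.18, Stx3 with 0.36 ± 0.20, Cplx2 with 0.19 ± 0.12 and Syt7 with 0.14 ± 0.11. All had an adjusted p of 1. Several of these values moved by over 1.5 times with 1 library left out. Without hippocampus YB-1 replicate 2 the value of Stxbp2 was 0.26, and without hippocampus YB-1 replicate 4 those of Stx3 and Rab3d were 0.20 and -0.15. Without hippocampus HSP70 replicate 5 the values of Rab3b and Rab3d were -0.22 and -0.13, and without hippocampus HSP70 replicate 2 that of Syt17 was -0.11.

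In the cortex the machinery again gave no call: 0 of 69 genes by edgeR, 0 by DESeq2 and 0 by limma-voom, with 0% of all 14114 genes called by edgeR. Over all genes, DESeq2 called 4 and limma-voom 1, none of them in the machinery. At an unadjusted p under 0.05 there were 4 genes of the machinery (5.8%), against 5.48% of all genes. The 4 were Sv2c and Stxbp2, with positive values, and Vamp4 and Syt4, with negative values. The machinery's smallest adjusted p was 0.858. The median log2 fold change was 0.0070 for the machinery and 0.0050 for all genes, and the 95% intervals of 67 of the 69 genes lay within a 2-fold difference. As given above, cortical depth was separate between the treatments, so treatment and depth cannot be told apart there. With counts thinned to equal depth the cortical count of called genes of the machinery was again 0. Thinning only removes reads, and the count was 0 before it, so this does not separate depth from treatment.

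Vamp4, a SNARE of the trans-Golgi network and endosomes, had the smallest cortical p. It was read at 15.2, 17.3, 20.4, 11.7 and 17.4 CPM with YB-1, against 34.4, 19.8, 21.9, 19.1 and 19.7 CPM with HSP70. One library, HSP70 replicate 1, stood far above the rest, and the ranges overlapped. Its log2 fold change was -0.49 ± 0.20 (SE; adjusted p = 0.858 by edgeR), and -0.30 without that library.

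Sv2c, the SV2 form best known from the basal ganglia, was read at 16.4, 14.6, 30.2, 21.3 and 28.6 CPM with YB-1, against 22.8, 14.5, 10.8, 17 and 14.35 CPM with HSP70. The groups overlapped, and the log2 fold change was 0.48 ± 0.23 (SE), or 0.50 without the library with raised striatal markers. Stxbp2 had 0.38 ± 0.18, Syt6 0.43 ± 0.22, Syn1 0.29 ± 0.17 and Syt7 0.21 ± 0.14. On the lower side, Syt4 had -0.35 ± 0.16, Syt14 -0.50 ± 0.24, Stx12 -0.25 ± 0.14 and Rims3 -0.29 ± 0.17 (log2 fold change ± SE). None of these passed the adjusted threshold. The value of Syt6 was 0.29 without cortex YB-1 replicate 4, the library with raised striatal markers. Without cortex HSP70 replicate 1 the values of Syn1 and Stx12 were 0.18 and -0.14, and without cortex HSP70 replicate 5 that of Rims3 was -0.18.

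**Figure D4:**
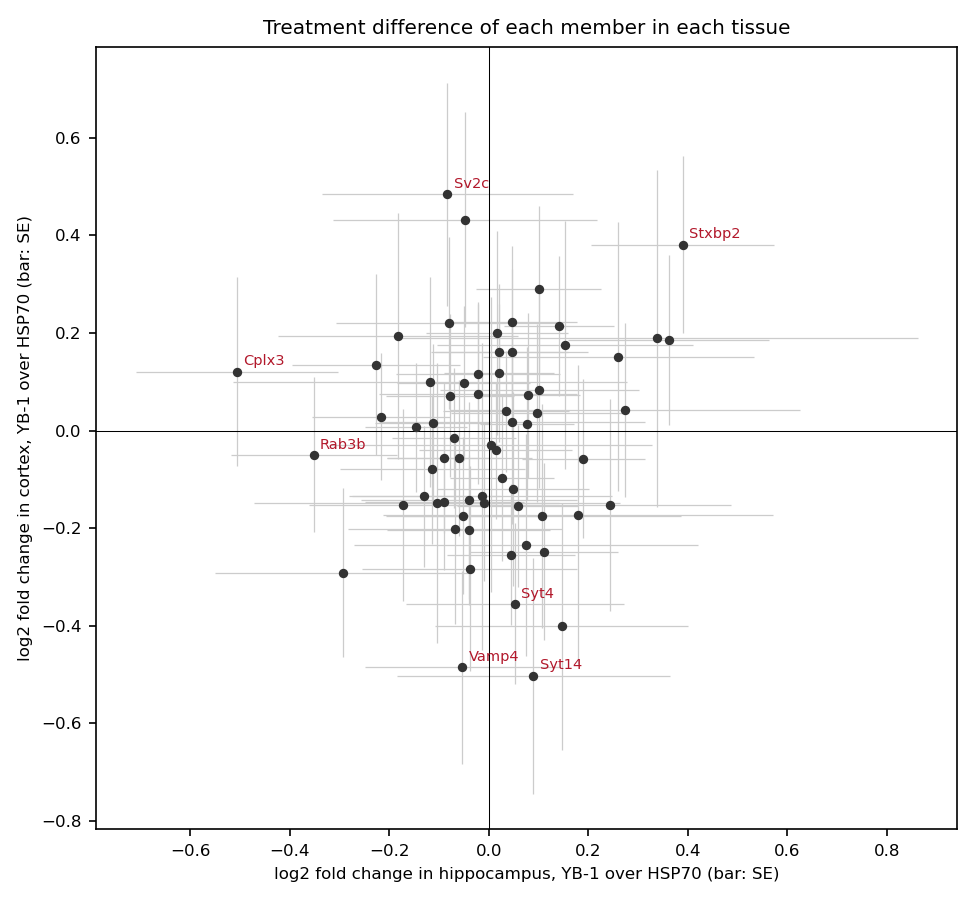
Log2 fold change, YB-1 over HSP70, of 66 genes in the hippocampus (horizontal) and the cortex (vertical), with bars of 1 SE; red names have an unadjusted p under 0.06 in either tissue. Most bars cross 0, and Stxbp2 lies to the upper right at 0.39 in the hippocampus and 0.38 in the cortex.

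The difference of the treatment effect between the tissues was tested as an interaction. It gave 0 calls of 70 genes by edgeR, and also by DESeq2 and limma-voom, with 0% of all 14616 genes called by edgeR. At an unadjusted p under 0.05 there was 1 gene of the machinery (1.43%), against 1.55% of all genes. That gene was Cplx3, whose difference of log2 fold changes, hippocampus minus cortex, was -0.63 ± 0.28 (SE). In the cortex Cplx3 had 26.5, 37.5, 29.9, 48.2 and 22.9 CPM with YB-1 and 23.8, 34.45, 26.4, 34.2 and 32.04 CPM with HSP70, where the HSP70 libraries lay inside the YB-1 range. The other smallest p values of the interaction were those of Sv2c (-0.57 ± 0.36), Rab3d (-0.36 ± 0.25), Syt6 (-0.48 ± 0.35) and Syt17 (-0.25 ± 0.18) on the negative side. On the positive side they were those of Syt14 (0.59 ± 0.36), Stx12 (0.29 ± 0.19), Vamp4 (0.43 ± 0.28), Snap91 (0.35 ± 0.25) and Syt4 (0.40 ± 0.28). Without the 4 libraries with raised markers, Sv2c had -0.90, Syt6 -0.77 and Syt14 0.33. Without cortex HSP70 replicate 1, Stx12 had 0.18, Vamp4 0.23 and Snap91 0.23. Syt4 had 0.17 without hippocampus YB-1 replicate 4, and Syt17 -0.14 without hippocampus HSP70 replicate 2. None of the genes of the 4 partner lists was called in either treatment comparison or in the interaction.

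Within groups, some genes of the machinery deviated together from library to library, while most pairs did not. Deviations of log2 CPM from the group mean were correlated over the 20 libraries for the 2415 pairs of tested genes, as a description. The median r was 0.025, 36 pairs had an r above 0.8 and 40 an r below -0.7. Among the closest pairs were Syt1 with Sv2b (r = 0.921), Stxbp5 with Snap91 (0.904), Rab3c with Snap25 (0.902) and Syt1 with Rims1 (0.898). Snap25 ran with Rims1 (0.842) and Snap91 (0.84) and against Stx5a (-0.78), and Syt3 ran against Rims1 (-0.843). The points share library depth and RNA composition, and the libraries also differed over all genes by transcript length. In hippocampus YB-1 replicate 1, hippocampus HSP70 replicate 1, cortex YB-1 replicate 3 and cortex HSP70 replicate 1, the deviations of 14610 genes had a rank correlation with exon length of 0.315, 0.337, 0.332 and 0.296, and Snap25 deviated by 0.42, 0.74, 0.55 and 0.71 on the log2 scale. In hippocampus HSP70 replicate 5 the rank correlation with length was -0.307 and Snap25 deviated by -0.55. The signs of the length correlation and of the Snap25 deviation were the same in 15 of the 20 libraries. They were opposite in the others, most widely in hippocampus YB-1 replicate 4, with -0.219 for length and 0.34 for Snap25. The part of transcript length or RNA quality in these shared deviations was not tested.

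**Figure D5:**
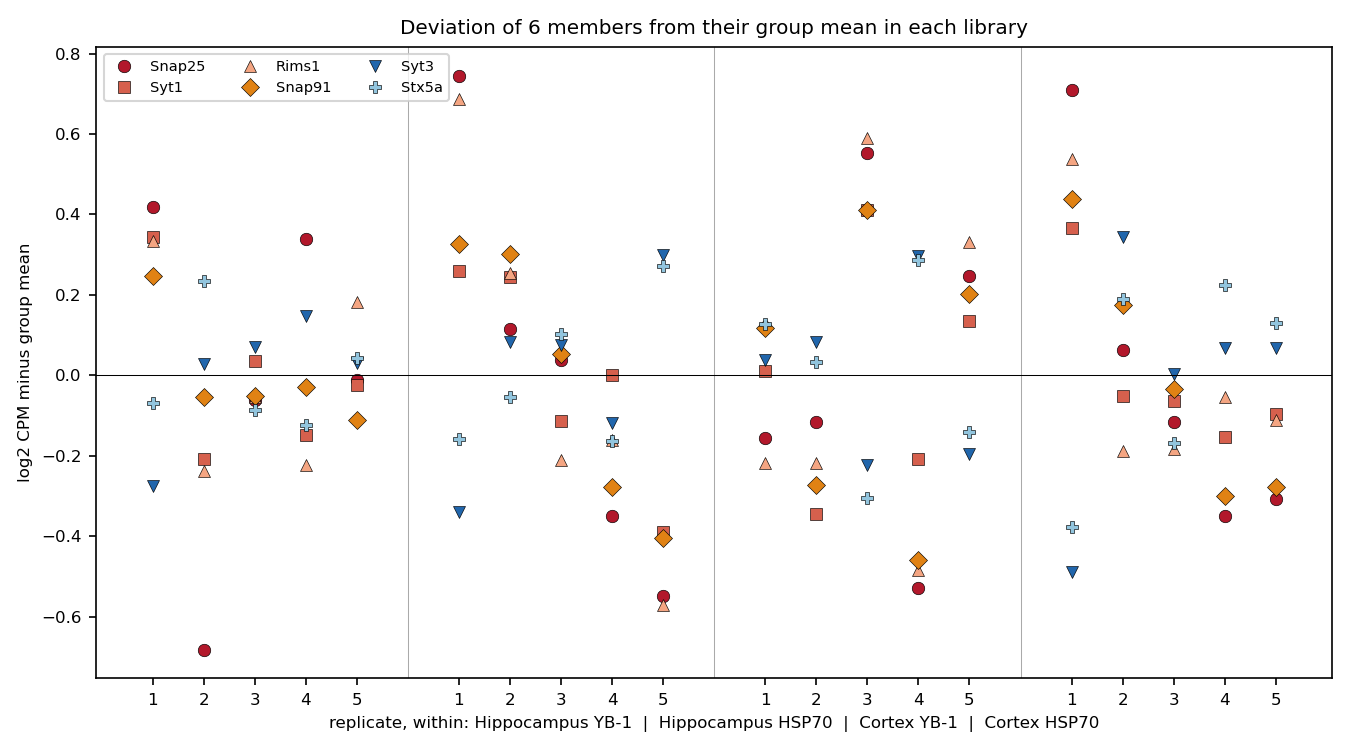
Deviation of log2 CPM (0.5 added) from the group mean for 6 genes in each of the 20 libraries. Snap25, Syt1, Rims1 and Snap91 lie above 0 together in 6 libraries, and in 5 of these Syt3 and Stx5a lie below 0.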

How the data were processed

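Poly(A) RNA of RIN 8 or more was sequenced single-end with a directional kit, per the labels' protocols. Deposited were raw read counts, 1 whole number per Ensembl gene and library. Per the submitters' processing notes, the authors used Trimmomatic, STAR and featureCounts with GRCm39. The strand setting, tool versions and annotation release were not given in the sources used here, so values of overlapping and antisense genes are uncertain. Excluded were 12 summary entries; of a library, 2.46 to 4.58% of reads lay outside any gene and 4.12 to 4.58% were ambiguous. Symbols, exon lengths and overlaps came from GENCODE M21 by Ensembl identifier, and 99.4% of identifiers matched. No libraries of a group were duplicates (chi-square per degree of freedom at least 10.1).

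Counts were scaled by TMM, filtered with filterByExpr and fitted over all genes with edgeR 4.0.16 (R 4.3.3), by robust quasi-likelihood F-tests with Benjamini-Hochberg adjustment and a threshold of 0.05. The treatment fits used the 10 libraries of a tissue, and the tissue and interaction fits all 20. CPM use the TMM-scaled library sizes. The script was tested on simulated data, where it did not find every change. Of simulated 2-fold changes, 44.8% were called in the hippocampal treatment fit and 65.7% in the cortical one. The shares were 80.6% between tissues and 17.9% for the interaction, so real changes of this size could be missed. Same-numbered libraries of the 2 tissues deviated together, with r = 0.207 to 0.394 with YB-1 and 0.198 to 0.624 with HSP70. In each treatment 5 of 5 pairs lay above 0.1, so the numbers were taken to pair the tissues. Some pairs of unlike number also lay above 0.1. Of the hippocampal libraries, 4 of 5 with YB-1 and 5 of 5 with HSP70 had their highest r with the same number. Hippocampus YB-1 replicate 1 had an r of 0.341 with cortex YB-1 replicate 5, against 0.207 with replicate 1. The pairing is therefore not certain. Same-numbered libraries of the 2 treatments lay above 0.1 in 1 of 5 pairs in the hippocampus and 3 of 5 in the cortex, and were not taken as pairs.

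The machinery's genes, the 4 partner lists and the 13 marker lists were chosen with earlier results of these data known. Named are, between tissues, the 10 called genes of largest fold change in each direction, in the other comparisons the 5 of smallest p in each direction, and the leading gene of each subfamily; the remaining called genes are listed for completeness. Of the machinery, 2 genes are not reported here by name or drawn, and they are included in the counts. Alternatives were DESeq2 1.42.0 and limma-voom with a quality weight for each library (limma 3.58.1). Further ones were RLE scaling, no filter, thinning to equal depth, the replicate block, each treatment alone and leaving out each library.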

Additional observations from a re-analysis of the deposited data

Results flagged for a closer look

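In 112 groups of 5 libraries examined for the genes named, 6 held a library whose gap to the nearest of the others was above the Dixon limit of 0.71 of the group's range. Chance passes this limit in about 1 of 20 independent groups. The 112 groups share the same 20 libraries and are not independent, so the 6 were not weighed against chance. In hippocampus YB-1 replicate 4, Syn1 was at 864.8 CPM, against 1127 to 1158 CPM in the other 4 libraries of its group, and Syt7 was at 230.6 CPM, against 291.5 to 316.0 CPM. In hippocampus YB-1 replicate 1, Snap91 was at 253.2 CPM, against 197.4 to 209.0 CPM. In hippocampus HSP70 replicate 4, Rims3 was at 141.1 CPM, against 57.47 to 75.28 CPM. In cortex HSP70 replicate 1, Rims1 was at 73.46 CPM, against 44.2 to 48.57 CPM, and Vamp4 was at 34.38 CPM, against 19.12 to 21.91 CPM.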

How the results depend on the processing

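Between the tissues, the count of 18 lower genes stood at 16 to 20 with each of the 20 libraries left out, at 9 among YB-1 libraries alone and at 11 among HSP70 libraries alone. The count of 4 higher genes stood at 2 to 5 with a library left out, being 2 without cortex HSP70 replicate 1, cortex YB-1 replicate 5, hippocampus HSP70 replicates 2 or 3, or hippocampus YB-1 replicate 3. It was 2 with no filter, 2 without the 4 libraries with raised striatal or thalamic markers (an alternative chosen after seeing the data), 2 among HSP70 libraries alone and 1 among YB-1 libraries alone. Over all genes the tissue count of 2320 was 2080 to 2437 with a library left out, 775 among YB-1 libraries alone and 1146 among HSP70 libraries alone. Fits within 1 treatment use 10 of the 20 libraries. With the replicate block for the paired tissues, 22 genes were lower and 4 higher, and Syn1 was the one call lost. Of 638 settings of the 22 called genes, 565 kept the call, 73 lost it and none changed sign. In the cortex, the treatment count over all genes was 0, but 4 with DESeq2, 1 with limma-voom, 9 with no filter and 1 without cortex HSP70 replicate 3; the cause was not tested. Every setting gave 0 called genes of the machinery in both treatment comparisons and the interaction, also with a replicate block between treatments, whose numbers share no more than a number. Depth limits genes near the filter, such as Doc2g and Syt10.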

Other observations

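Vamp8, a SNARE of endosomal and regulated secretory fusion, was among the most variable of the machinery's genes. Its highest levels were 85.7 CPM in hippocampus YB-1 replicate 2 and 89.6 CPM in hippocampus HSP70 replicate 5, against 25.4 to 60.4 CPM in the other 18 libraries. The same libraries had the highest levels of the choroid plexus gene Ttr, 726.5 and 1279 CPM. The part of choroid plexus tissue in these values was not tested.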
